A study of Homo sapiens with 12 samples.

Results

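The type I interferon response was followed through 49 interferon-stimulated genes, taken from a list of gene names, in T47D cells with or without HOXB13 and with or without estradiol. All 49 symbols were among the 55882 of the count table, and 44 of them passed the low-count filter and were among the 14799 genes tested. T47D is an established human breast cancer cell line of luminal, estrogen receptor-positive type, and HOXB13 is a homeobox transcription factor that was introduced into it ectopically. The 4 groups, each of 3 libraries, were wild-type T47D cells in ethanol vehicle or in 2 nM estradiol, called control cells here, and T47D-HOXB13 cells in vehicle or in 2 nM estradiol. All 4 shared 72 h in charcoal-stripped, and thus steroid-poor, serum before 24 h of treatment, and the labels name no interferon treatment. The labels do not say whether the control cells carried an empty vector, or whether the HOXB13 cells were 1 clone or a pool. They also do not say whether the 3 libraries of a group came from separate cultures, so the p-values here reflect the spread among these libraries alone.

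Type I interferons are secreted when RNA sensors such as RIG-I and MDA5 detect foreign or misplaced nucleic acid. They bind the receptor pair IFNAR1 and IFNAR2, whose kinases JAK1 and TYK2 activate transcription factors in the cytoplasm, STAT2 among them. STAT2 and IRF9 act in the complex ISGF3, which binds interferon-stimulated response elements in promoters and switches on genes that block viral RNA, tag proteins with ISG15 and restrict viral entry. Tumour cells can hold a low, chronic level of such genes without infection.

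The response element was looked up in the promoters of the genes themselves. RefSeq promoters of build GRCh38.p14, each 250 bases before to 50 bases after a gene's start, were matched for 41 of the 49 genes, with DDX58 listed there as RIGI, and not for IRF7, DHX58, IFIT2, OAS2, OASL, USP18, IFITM2 and MX2. The core of the element, searched as GAAANNGAA on both strands, occurred in 27 of these 41 promoters (65.9%), against 2847 of all 35116 promoters of that table (8.11%). When the core had to be followed by A, 26 of 41 (63.4%) and 3.57% of all promoters held it. The gamma-activated site TTCNNNGAA, which reads the same on both strands, occurred in 10 of 41 (24.4%) and 7.66% of all. These are letter matches and do not show binding. Stretches around 1 match before the start are shown 5′ to 3′ on the gene's strand, with the match in capitals, for OAS3 and HERC5, which rose with estradiol, and for other genes whose levels are described below.
OAS3, chr12:112938442-112938473, plus strand: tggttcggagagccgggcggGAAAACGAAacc
HERC5, chr4:88457026-88457074, plus strand: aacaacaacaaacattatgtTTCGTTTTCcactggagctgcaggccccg
IFIT1, chr10:89392501-89392549, plus strand: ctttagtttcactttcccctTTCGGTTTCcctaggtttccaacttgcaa
IFIT3, chr10:89327856-89327904, plus strand: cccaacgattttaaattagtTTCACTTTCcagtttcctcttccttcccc
IFIH1, chr2:162318685-162318725, minus strand: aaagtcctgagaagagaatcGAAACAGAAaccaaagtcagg
PARP14, chr3:122680790-122680838, plus strand: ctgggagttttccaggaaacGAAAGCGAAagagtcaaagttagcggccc
ISG15, chr1:1013376-1013424, plus strand: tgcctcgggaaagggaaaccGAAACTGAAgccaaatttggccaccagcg
IFI6, chr1:27672257-27672305, minus strand: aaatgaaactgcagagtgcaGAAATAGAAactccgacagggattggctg
TTC at the start of the capitals means that the core lies on the other strand, as in HERC5, IFIT1 and IFIT3. Of the genes called in an estradiol comparison, OAS3 held 2 cores and HERC5 held 3, while the promoters of SP110, TRIM25, PARP9 and DDX58 held 0 in this window. OAS2 and MX2, which were also called, had no matched promoter. Whether the core goes with the direction of the estradiol change was not tested.

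The libraries had 17679824 to 21385996 counts, of which the 49 genes took 0.101% to 0.154%. HOXB13 had 112, 106 and 108 counts in the HOXB13 vehicle libraries, 110, 92 and 97 in the HOXB13 estradiol libraries, 2, 0 and 1 in the control vehicle libraries and 0 in every control estradiol library. The 11 luminal markers summed to 20500 to 28500 CPM (normalised read counts, the library's counts scaled to a fixed total with TMM factors). Leukocyte markers summed to 1.24 to 4.17 CPM over 8 genes, with MS4A1 and NKG7 at 0. Of 4 plasmacytoid dendritic cell markers, CLEC4C and LILRA4 had no count in any library, and the sum did not exceed 0.271 CPM.

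Transcripts of the interferons themselves were nearly undetected. Of 21 interferon genes listed, 18 had 0 counts in all 12 libraries, which allows up to 0.140 to 0.170 CPM per library (3 counts of the total), a limit that covers counting error only. IFNB1, the interferon beta gene, had 1 and 3 counts in HOXB13 vehicle libraries 1 and 3 and 0 elsewhere. The lambda interferon IFNL1 had 3 counts in control vehicle library 3 and 4 in HOXB13 vehicle library 1, and IFNL3 had 3 in HOXB13 estradiol library 1. The receptor chain IFNAR1 was at 106 ± 9.74 CPM in control vehicle, 108 ± 8.07 in control estradiol, 107 ± 5.69 in HOXB13 vehicle and 105 ± 0.876 in HOXB13 estradiol (SD, n = 3 here and below). It passed edgeR's test in no comparison.

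Estradiol changed single interferon response genes in both directions. In the fit without a replicate block, the share that changed was near that of all genes in control cells and lower in HOXB13 cells. With the block it was lower in both. In control cells 2 of the 44 tested genes rose, OAS3 and HERC5, and 5 fell, OAS2, SP110, TRIM25, MX2 and PARP9, at an adjusted p under 0.05 (edgeR's quasi-likelihood test, adjusted by Benjamini-Hochberg over all tested genes). This was 15.9% of the genes (4.55% higher, 11.4% lower), near the 15.4% called among all tested genes (8.65% higher, 6.72% lower). In HOXB13 cells 0 rose and 3 fell, OAS2, DDX58 and TRIM25, which was 6.82% against 13.6% of all genes (7.22% higher, 6.38% lower). The median log2 fold change over the 44 was −0.06 in control cells and −0.17 in HOXB13 cells, against −0.01 over all tested genes in each. Blocking on the replicate number gave 4 higher and 8 lower in control cells, 27.3% against 34% of all genes called (17.5% higher, 16.5% lower). In HOXB13 cells it gave 1 higher and 7 lower, 18.2% against 30.5% (15.5% higher, 15% lower). The control median changed sign without control vehicle library 3 (0.05) or control estradiol library 1 (0.01). In control cells 1 gene rose without vehicle library 1 or estradiol library 1 or 3, and 2 fell without vehicle library 3, 3 without estradiol library 1 or 2 and 1 without estradiol library 3. In HOXB13 cells 1 fell without vehicle library 1 or 3 or estradiol library 1 or 2, 5 fell without vehicle library 2, and 1 rose without vehicle library 3. In the library values below, numbers are CPM in libraries 1, 2 and 3 of each group, fold changes are on the log2 scale ± SE, and bulk RNA cannot tell fewer expressing cells from less RNA per cell. Estradiol and HOXB13 comparisons share libraries, so their values are not independent of each other.

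**Figure D1:**
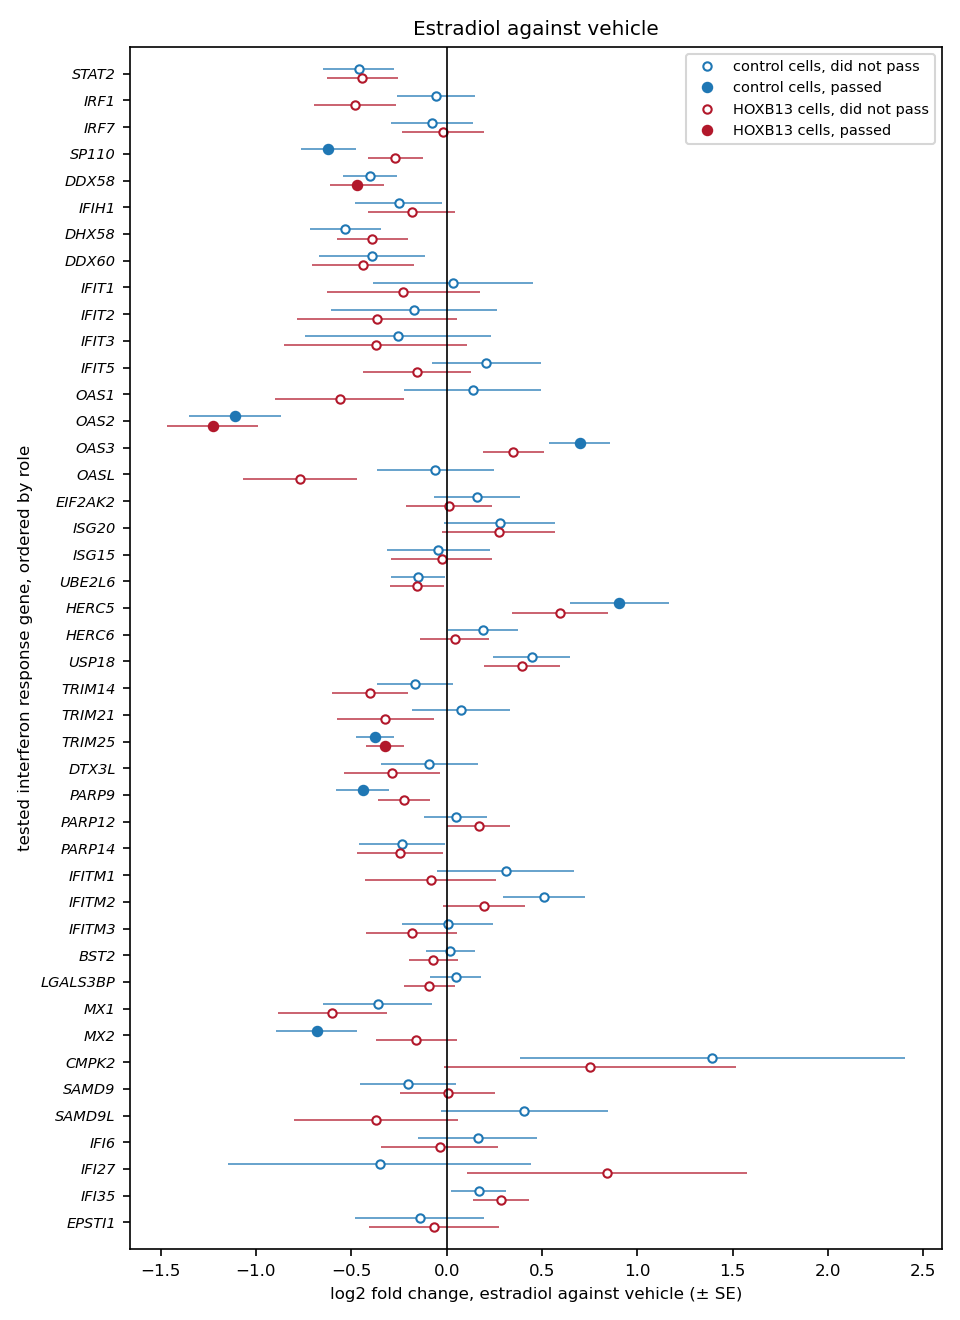
Log2 fold change of estradiol against vehicle (x axis, bars ± SE of the edgeR fit over 12 libraries) for the 44 tested interferon response genes in control and HOXB13 cells. Filled points passed the adjusted threshold: OAS2 lies farthest to the left of them in both genotypes, and OAS3 and HERC5 are filled on the right in control cells.

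Among signal transducers and transcription factors, 1 of 4 tested genes passed in control cells and 0 in HOXB13 cells, while all 4 had negative fold changes in both. Over all tested genes, 48.7% had a positive fold change in control and 49% in HOXB13 cells, and 15.4% and 13.6% passed. Other roles were mixed. In control and HOXB13 cells, 6 and 3 of 10 RNA-directed effectors were positive, and 5 and 1 of 5 membrane and entry factors. So were 5 and 4 of 12 genes of the ISG15 system and other ubiquitin-related enzymes, and 4 and 4 of 9 other antiviral genes. STAT2, the ISGF3 subunit that carries its activation domain, had 54.4, 41.2 and 46.3 CPM in control cells in vehicle, 37.5, 28.6 and 36.9 in control cells in estradiol, 57.5, 36.6 and 63.3 in HOXB13 cells in vehicle and 37.9, 34.6 and 43.5 in HOXB13 cells in estradiol. Estradiol libraries lay below all vehicle libraries in control cells, but in HOXB13 cells vehicle library 2 lay among them. The difference was −0.46 ± 0.19 (adjusted p = 0.115) and −0.44 ± 0.19 (adjusted p = 0.141), and passed in both genotypes with the block (edgeR adjusted p = 0.000792 and 0.00242). Without HOXB13 vehicle library 2 it was −0.64 in HOXB13 cells (adjusted p = 0.0141). SP110, a nuclear body protein, had 14.4, 18 and 20.3 CPM in control cells in vehicle, 12.2, 11.6 and 10.6 in control cells in estradiol, 15.6, 17.3 and 15.4 in HOXB13 cells in vehicle and 13.4, 14.4 and 12.2 in HOXB13 cells in estradiol. The estradiol and vehicle libraries did not overlap in either genotype. SP110 fell by 0.62 ± 0.14 in control cells (adjusted p = 0.00896), a call that ended without control estradiol library 3 (adjusted p = 0.0515), and the difference in HOXB13 cells was −0.27 ± 0.14 (adjusted p = 0.261).

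IRF7, the interferon regulatory factor that amplifies interferon production, had 7.07, 12.6 and 7.15 CPM in control cells in vehicle, 7.52, 9.7 and 8.29 in control cells in estradiol, 9.48, 8.03 and 10.3 in HOXB13 cells in vehicle and 8.29, 9.22 and 9.91 in HOXB13 cells in estradiol. All 4 groups overlapped, and control vehicle library 2 was the highest of the 12. IRF1, a transcription factor induced by both interferon types, had 4.31, 4.02 and 4.18 CPM in control cells in vehicle, 3.66, 3.71 and 4.65 in control cells in estradiol, 4.02, 2.96 and 3.92 in HOXB13 cells in vehicle and 3.08, 2.29 and 2.44 in HOXB13 cells in estradiol. In estradiol, the 3 HOXB13 libraries were below the 3 control libraries. IRF9, the DNA-binding subunit of ISGF3, had 1 to 12 counts and was not tested; 93.5% of its exon bases in GENCODE 29 are shared on the same strand with another listed gene, AL136295.5, so its count is uncertain.

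The RNA sensors had lower means in estradiol in each genotype. All 4 tested genes had negative fold changes in both, where 48.7% and 49% of all tested genes were positive in control and HOXB13 cells. DDX58 in HOXB13 cells alone passed without the block. DDX58, which encodes the sensor RIG-I, had 41.1, 34.4 and 40.8 CPM in control cells in vehicle, 31.9, 26.1 and 30.1 in control cells in estradiol, 43.8, 31.7 and 46.6 in HOXB13 cells in vehicle and 28.7, 28 and 31.4 in HOXB13 cells in estradiol. Estradiol libraries were below vehicle libraries in both genotypes, with a gap in HOXB13 cells of 31.4 to 31.7 CPM. DDX58 fell by 0.47 ± 0.14 in HOXB13 cells (adjusted p = 0.0447), and in control cells the difference was −0.40 ± 0.14 (adjusted p = 0.0776, with the block 0.00156). The HOXB13 call ended without vehicle library 1 (edgeR adjusted p = 0.171) or 3 (0.172) and without estradiol library 1 (0.134), 2 (0.126) or 3 (0.0773). It also ended with only the 2 groups in the fit. Control cells passed without vehicle library 2 (0.0422).

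DHX58, or LGP2, a sensor that tunes the other 2, had 15.5, 19.9 and 17.2 CPM in control cells in vehicle, 11.5, 14.1 and 10.9 in control cells in estradiol, 16.7, 23.2 and 14.8 in HOXB13 cells in vehicle and 12.3, 16.6 and 12.9 in HOXB13 cells in estradiol. In each of the 4 groups library 2 was the highest. Its estradiol difference of −0.53 ± 0.19 in control cells (adjusted p = 0.071) and −0.39 ± 0.19 in HOXB13 cells (adjusted p = 0.201) passed with the block (edgeR adjusted p = 0.00106 and 0.0154). IFIH1, which encodes MDA5, had 17.4, 13.7 and 20.4 CPM in control cells in vehicle, 16, 12.5 and 14.8 in control cells in estradiol, 19.6, 14.3 and 28.2 in HOXB13 cells in vehicle and 17.5, 15.1 and 22 in HOXB13 cells in estradiol. Here library 2 was the lowest of every group, and estradiol and vehicle libraries overlapped. DDX60, a helicase linked to RIG-I signalling, ranged from 2.94 to 9.42 CPM and passed in neither genotype.

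Of the OAS enzymes, which sense double-stranded RNA and activate RNase L, OAS2 fell and OAS3 rose in control cells. OAS2 had 29.2, 39.3 and 42.9 CPM in control cells in vehicle, 19.8, 14.8 and 17 in control cells in estradiol, 52.6, 30.7 and 70.7 in HOXB13 cells in vehicle and 22.3, 20.4 and 23.1 in HOXB13 cells in estradiol. Every estradiol library was below every vehicle library, and all 6 estradiol libraries lay between 14.8 and 23.1 CPM while the vehicle libraries spread from 29.2 to 70.7. OAS2 fell from 37.1 ± 7.12 to 17.2 ± 2.52 CPM in control cells, a log2 change of −1.11 ± 0.24 (edgeR adjusted p = 0.00568), and from 51.3 ± 20 to 21.9 ± 1.41 CPM in HOXB13 cells, −1.23 ± 0.24 (edgeR adjusted p = 0.00329). OAS2 passed in both genotypes under every alternative run, leaving out any single library included (adjusted p at most 0.0279). OAS3, its larger paralog, had 105, 126 and 144 CPM in control cells in vehicle, 217, 191 and 200 in control cells in estradiol, 158, 117 and 199 in HOXB13 cells in vehicle and 209, 201 and 195 in HOXB13 cells in estradiol. Estradiol libraries were above all vehicle libraries in control cells, whereas HOXB13 vehicle library 3, at 199 CPM, lay within the estradiol range.

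OAS3 rose from 125 ± 19.9 to 203 ± 13.3 CPM in control cells, by 0.70 ± 0.16 (edgeR adjusted p = 0.00871), and this also held with each library left out (adjusted p at most 0.0487). In HOXB13 cells the OAS3 difference was 0.35 ± 0.16 (adjusted p = 0.185, and 0.0321 without HOXB13 vehicle library 3). OAS1 had 1.6, 3.64 and 3.5 CPM in control cells in vehicle, 3.52, 3.1 and 3.01 in control cells in estradiol, 5.76, 3.96 and 10.8 in HOXB13 cells in vehicle and 4.04, 4.33 and 5.52 in HOXB13 cells in estradiol. It passed in neither genotype, and HOXB13 vehicle library 3 was the highest of the 12, with control vehicle library 1 the lowest. OASL, a catalytically inactive relative that binds RIG-I, had a difference of −0.77 in HOXB13 cells (adjusted p = 0.11), which passed with the block (0.00711) and without HOXB13 estradiol library 3 (log2 fold change −1.16, adjusted p = 0.0279).

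Other RNA-directed effectors passed in neither genotype. IFIT1, which binds viral RNA caps, had 3.11, 4.22 and 6.21 CPM in control cells in vehicle, 4.44, 4.64 and 4.75 in control cells in estradiol, 8.69, 2.8 and 13.4 in HOXB13 cells in vehicle and 7.12, 5.21 and 8.94 in HOXB13 cells in estradiol. The control estradiol libraries were close together, whereas the HOXB13 vehicle libraries held both the lowest and the highest values of all 12. IFIT3, which stabilises IFIT1, had 2.16, 1.96 and 5.53 CPM in control cells in vehicle, 2.15, 2.17 and 3.73 in control cells in estradiol, 3.33, 2.43 and 6.49 in HOXB13 cells in vehicle and 2.76, 1.67 and 5.04 in HOXB13 cells in estradiol. Library 3 was the highest in each group. EIF2AK2, the kinase PKR that halts translation, had 41, 32.9 and 52 CPM in control cells in vehicle, 53.4, 38.1 and 48.9 in control cells in estradiol, 52.3, 33.2 and 62 in HOXB13 cells in vehicle and 53.6, 38.5 and 56.7 in HOXB13 cells in estradiol. Library 2 was the lowest in each group, and vehicle and estradiol overlapped.

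In the ISG15 system, in which ISG15 is conjugated to proteins like ubiquitin, the ligase rose and the modifier did not pass. HERC5, the main ISG15 ligase, had 1.91, 2.87 and 2.92 CPM in control cells in vehicle, 4.69, 4.08 and 5.67 in control cells in estradiol, 4.47, 2.32 and 4.03 in HOXB13 cells in vehicle and 5.05, 5.63 and 5.69 in HOXB13 cells in estradiol. Estradiol libraries were above all vehicle libraries in both genotypes. HERC5 rose by 0.91 ± 0.26 in control cells (adjusted p = 0.0284), a call that ended without control vehicle library 1 (0.122), estradiol library 1 (0.0583) or estradiol library 3 (0.122), and in HOXB13 cells the difference was 0.59 ± 0.25 (adjusted p = 0.145). ISG15 itself had 4.51, 9.05 and 9.4 CPM in control cells in vehicle, 8.01, 6.66 and 7.61 in control cells in estradiol, 9.93, 6.39 and 12.3 in HOXB13 cells in vehicle and 8.18, 10.7 and 9.26 in HOXB13 cells in estradiol, with fold changes of −0.04 ± 0.27 and −0.02 ± 0.27. Control vehicle library 1 was the lowest of the 12 and HOXB13 vehicle library 3 the highest.

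USP18, the protease that removes ISG15 and restrains the receptor, had 5.52, 7.86 and 7.78 CPM in control cells in vehicle, 8.25, 11.7 and 8.92 in control cells in estradiol, 6.75, 8.29 and 9.26 in HOXB13 cells in vehicle and 9.14, 12.8 and 10 in HOXB13 cells in estradiol. Control estradiol libraries were above control vehicle libraries, and the difference of 0.45 ± 0.20 (adjusted p = 0.164) passed with the block only (0.024). UBE2L6, the ISG15-conjugating enzyme, had 65.7, 93.6 and 76.5 CPM in control cells in vehicle, 64, 79.4 and 69.5 in control cells in estradiol, 91, 88.2 and 85.2 in HOXB13 cells in vehicle and 69.4, 93.5 and 74.3 in HOXB13 cells in estradiol. In control cells and in HOXB13 estradiol cells library 2 was the highest, and the groups overlapped.

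TRIM25, a ligase that acts on RIG-I and is itself a known estrogen-responsive gene, had 180, 174 and 200 CPM in control cells in vehicle, 146, 143 and 139 in control cells in estradiol, 198, 167 and 208 in HOXB13 cells in vehicle and 154, 146 and 158 in HOXB13 cells in estradiol. Vehicle libraries exceeded estradiol libraries in both genotypes. TRIM25 fell by 0.38 ± 0.10 in control cells (edgeR adjusted p = 0.0191) and by 0.32 ± 0.10 in HOXB13 cells (edgeR adjusted p = 0.045). The control call ended without vehicle library 3 (0.0849), estradiol library 2 (0.0583) or estradiol library 3 (0.0852). The HOXB13 call ended without vehicle library 1 (0.167) or 3 (0.167) or estradiol library 1 (0.117), 2 (0.134) or 3 (0.0817). It also ended with only the 2 groups in the fit. TRIM14, an adaptor on mitochondria, had a difference of −0.40 in HOXB13 cells, which passed with the block only (edgeR adjusted p = 0.0248, against 0.224).

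PARP9, which acts in a complex with the ubiquitin ligase DTX3L, had 23.3, 30.2 and 30.5 CPM in control cells in vehicle, 18.9, 22.4 and 20.6 in control cells in estradiol, 32, 32.5 and 40.7 in HOXB13 cells in vehicle and 27.8, 30.7 and 31.7 in HOXB13 cells in estradiol. Its estradiol libraries were below its vehicle libraries in each genotype. PARP9 fell by 0.44 ± 0.14 in control cells (adjusted p = 0.0448), a call that ended without vehicle library 2 (0.0985) or 3 (0.153), without estradiol library 1 (0.145), 2 (0.0587) or 3 (0.127), with only the 2 groups in the fit (0.08) and with no filter (0.0501). In HOXB13 cells the difference was −0.22 ± 0.14 (adjusted p = 0.338). DTX3L had 26.1, 24.7 and 35 CPM in control cells in vehicle, 30.9, 21.3 and 28.4 in control cells in estradiol, 37.3, 23.8 and 52.3 in HOXB13 cells in vehicle and 33, 23.1 and 37.1 in HOXB13 cells in estradiol. PARP14, an ADP-ribosyltransferase, had 31.5, 22.7 and 30.7 CPM in control cells in vehicle, 25, 19.2 and 27.9 in control cells in estradiol, 41.6, 22.3 and 45.7 in HOXB13 cells in vehicle and 32.1, 27.6 and 32.9 in HOXB13 cells in estradiol. For both genes library 2 was the lowest of every group, and vehicle and estradiol overlapped.

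None of the 5 membrane and entry factors passed in either genotype without the block. IFITM1, a restriction factor at the cell surface, had 2.06, 5.99 and 4.49 CPM in control cells in vehicle, 4.3, 6.09 and 5.19 in control cells in estradiol, 8.09, 5.28 and 8.94 in HOXB13 cells in vehicle and 9.99, 4.38 and 6.72 in HOXB13 cells in estradiol. Control vehicle library 1 was the lowest of the 12 and HOXB13 estradiol library 1 the highest. IFITM3, its endosomal relative, had 5.92, 11.2 and 5.74 CPM in control cells in vehicle, 6.69, 9.24 and 7.03 in control cells in estradiol, 10.2, 11.3 and 8.89 in HOXB13 cells in vehicle and 9.99, 7.56 and 9.21 in HOXB13 cells in estradiol. BST2, or tetherin, which retains budding virus, had 114, 146 and 108 CPM in control cells in vehicle, 114, 138 and 120 in control cells in estradiol, 125, 146 and 116 in HOXB13 cells in vehicle and 132, 119 and 119 in HOXB13 cells in estradiol. All groups of IFITM3 and BST2 overlapped, and 23.7% of IFITM3's GENCODE 29 exon bases lie opposite another gene, which unstranded counting could not separate. IFITM2, a close copy of IFITM3 with which reads may be split, had a difference of 0.51 in control cells that passed with the block only (edgeR adjusted p = 0.0331, against 0.132).

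Of the other antiviral proteins, MX2 alone passed. MX2, a GTPase at the nuclear pore, had 5.57, 5.75 and 5.69 CPM in control cells in vehicle, 2.88, 4.44 and 3.3 in control cells in estradiol, 4.52, 5.07 and 5.34 in HOXB13 cells in vehicle and 4.51, 3.44 and 5.42 in HOXB13 cells in estradiol. Control estradiol libraries were below all control vehicle libraries, whereas the HOXB13 groups overlapped. MX2 fell by 0.68 ± 0.21 in control cells (adjusted p = 0.0435), a call that ended without control vehicle library 1 (0.0959), 2 (0.0725) or 3 (0.0975), without estradiol library 1 (0.153) or 3 (0.144), with only the 2 groups in the fit (0.0707) and with no filter (0.0581). Its difference in HOXB13 cells was −0.16 ± 0.21 (adjusted p = 0.699). MX1, the cytoplasmic GTPase, had 30.1, 62.7 and 64.8 CPM in control cells in vehicle, 34.9, 42.1 and 45.8 in control cells in estradiol, 91.4, 54.8 and 126 in HOXB13 cells in vehicle and 51.4, 62.2 and 66 in HOXB13 cells in estradiol. The HOXB13 vehicle libraries spread from 54.8 to 126 CPM, and those of control cells in vehicle from 30.1 to 64.8.

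IFI6, a mitochondrial survival protein, had 17.5, 23.9 and 28.7 CPM in control cells in vehicle, 26.2, 18.5 and 33.9 in control cells in estradiol, 40.5, 30 and 48.9 in HOXB13 cells in vehicle and 59.3, 22.6 and 34.6 in HOXB13 cells in estradiol. HOXB13 estradiol library 1 was the highest of the 12 and library 2 of that group the third lowest. IFI27, an early marker of interferon exposure, was low, with 0.602, 0.383 and 1.88 CPM in control cells in vehicle, 1.56, 0.361 and 0.291 in control cells in estradiol, 0.645, 0.687 and 1.99 in HOXB13 cells in vehicle and 3.88, 0.99 and 1.08 in HOXB13 cells in estradiol. IFI35, a small leucine zipper protein, had 24.3, 33.2 and 26.7 CPM in control cells in vehicle, 29.3, 36.2 and 29.1 in control cells in estradiol, 27.1, 28.1 and 22.4 in HOXB13 cells in vehicle and 28.5, 34.7 and 31.5 in HOXB13 cells in estradiol, and its difference of 0.28 in HOXB13 cells passed with the block only (edgeR adjusted p = 0.0314, against 0.243). RSAD2, XAF1, IFI44 and IFI44L, all strong interferon targets, had at most 9, 18, 9 and 1 counts in any library and were not tested.

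**Figure D2:**
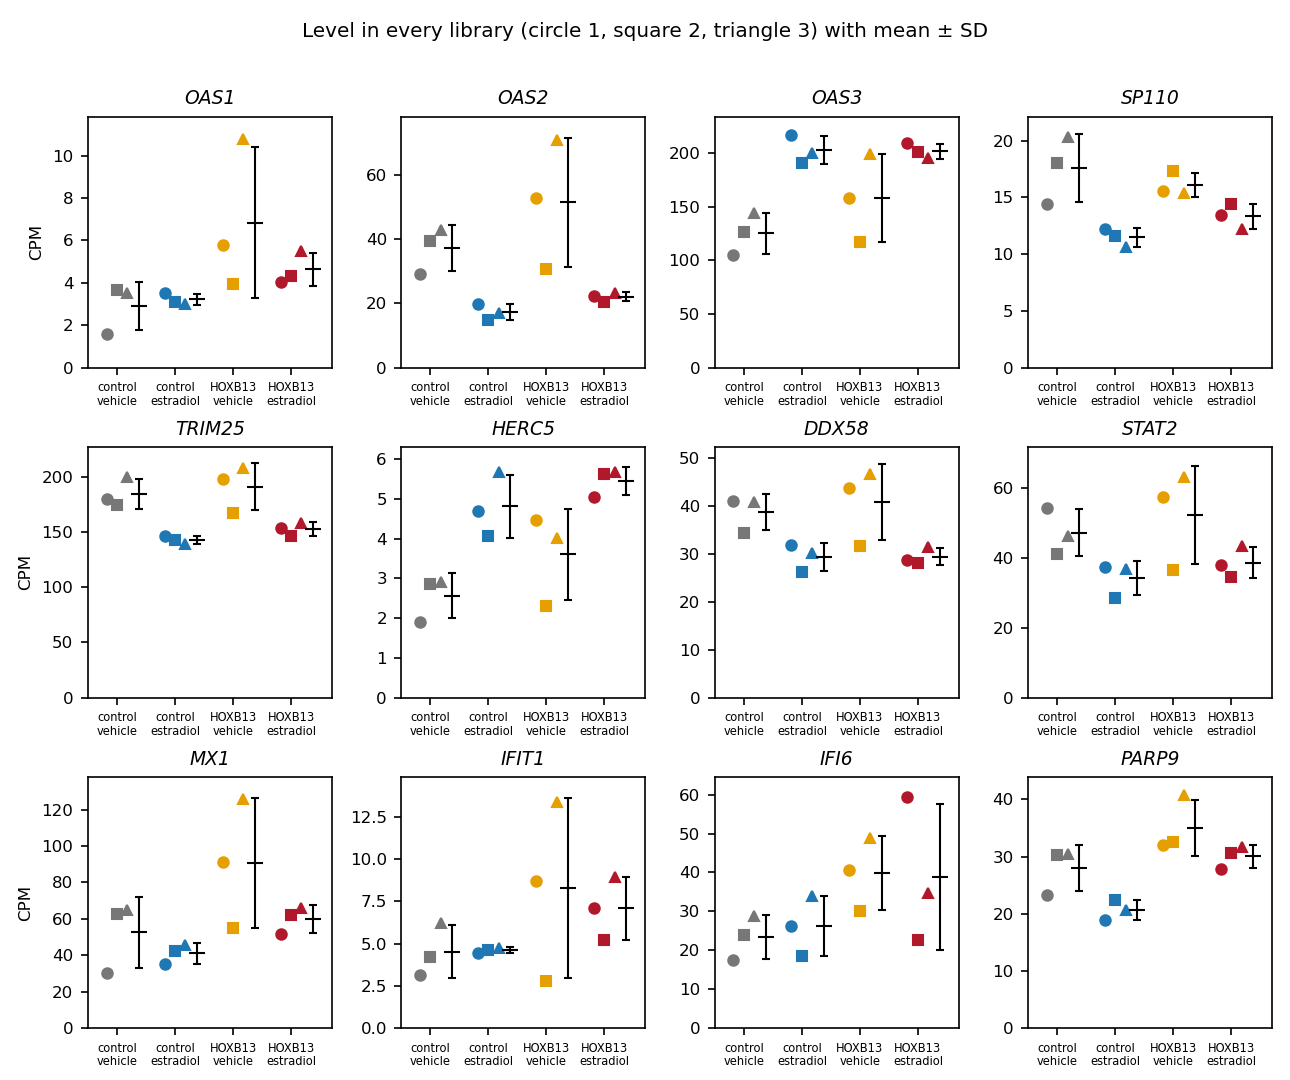
CPM (y axis, from 0) of 12 interferon response genes in each library, by group, with circles, squares and triangles for libraries 1, 2 and 3 and a bar at the mean ± SD of 3 libraries. OAS2 and TRIM25 are lower in every estradiol library than in any vehicle library of the same genotype, and the HOXB13 vehicle libraries spread widest in OAS1, OAS2, MX1 and IFIT1.

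The estradiol responses of the genotypes were compared directly by the interaction, the response in HOXB13 cells minus that in control cells. No gene of the 14799 passed, with 0% called among all genes, and of the 44 interferon response genes 0 had an unadjusted p under 0.05 by edgeR, against 1.48% of all genes, and 0 passed by DESeq2. The difference in log2 response was −0.35 ± 0.23 for OAS3, −0.31 ± 0.36 for HERC5, −0.12 ± 0.33 for OAS2, 0.35 ± 0.20 for SP110, 0.52 ± 0.30 for MX2 and 0.05 ± 0.14 for TRIM25 (SE). The calls that stood in 1 genotype alone are therefore not shown to differ between genotypes. The median over the 44 genes was −0.12, and ranged from −0.29 without HOXB13 vehicle library 2 to 0.05 without HOXB13 vehicle library 3.

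HOXB13 was compared with control cells in each treatment. In both, most interferon response genes had higher means in HOXB13 cells, and 0 passed the test. In vehicle, 37 of the 44 (84.1%) had a positive log2 fold change, against 50.3% of all tested genes, with a median of 0.29. In estradiol, 36 of 44 (81.8%) did, against 48.9% of all, with a median of 0.19, and over all tested genes the medians were 0.0010 and −0.0051. The 44 genes are not independent observations, because many shifted together in single libraries. In HOXB13 vehicle library 3, 35 lay above their group mean, and in control vehicle library 1, 34 lay below theirs. Over all genes, 3 passed in vehicle (0.0203%) and 2 in estradiol (0.0135%). At an unadjusted p under 0.05 edgeR gave 9 of the 44 in vehicle, against 3.78% of all genes, and 2 in estradiol, against 3.3%, and DESeq2 called 0 in each.

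The largest vehicle difference among the 9 was in OAS1, with 2.91 ± 1.14 CPM in control and 6.83 ± 3.53 in HOXB13 cells, a log2 fold change of 1.23 ± 0.35 (edgeR adjusted p = 0.758). The others were OASL at 0.88 ± 0.30, IFIT1 at 0.88 ± 0.41, IFITM1 at 0.83 ± 0.35, MX1 at 0.79 ± 0.28, IFI6 at 0.77 ± 0.31, DDX60 at 0.64 ± 0.27, HERC6 at 0.41 ± 0.18 and PARP9 at 0.33 ± 0.14 (SE, edgeR adjusted p = 1). MX1 went from 52.6 ± 19.4 to 90.7 ± 35.6 CPM and IFI6 from 23.4 ± 5.58 to 39.8 ± 9.5 CPM. In estradiol, OAS1 was at 3.21 ± 0.272 and 4.63 ± 0.789 CPM, and MX1 at 40.9 ± 5.57 and 59.9 ± 7.57 CPM. The 2 genes under an unadjusted p of 0.05 in estradiol were PARP9, at 0.54 ± 0.14 (adjusted p = 0.655), and IRF1, at −0.62 ± 0.21 (adjusted p = 0.999). PARP9 was higher with the block (edgeR adjusted p = 0.00851), where 0.392% of all genes were called.

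**Figure D3:**
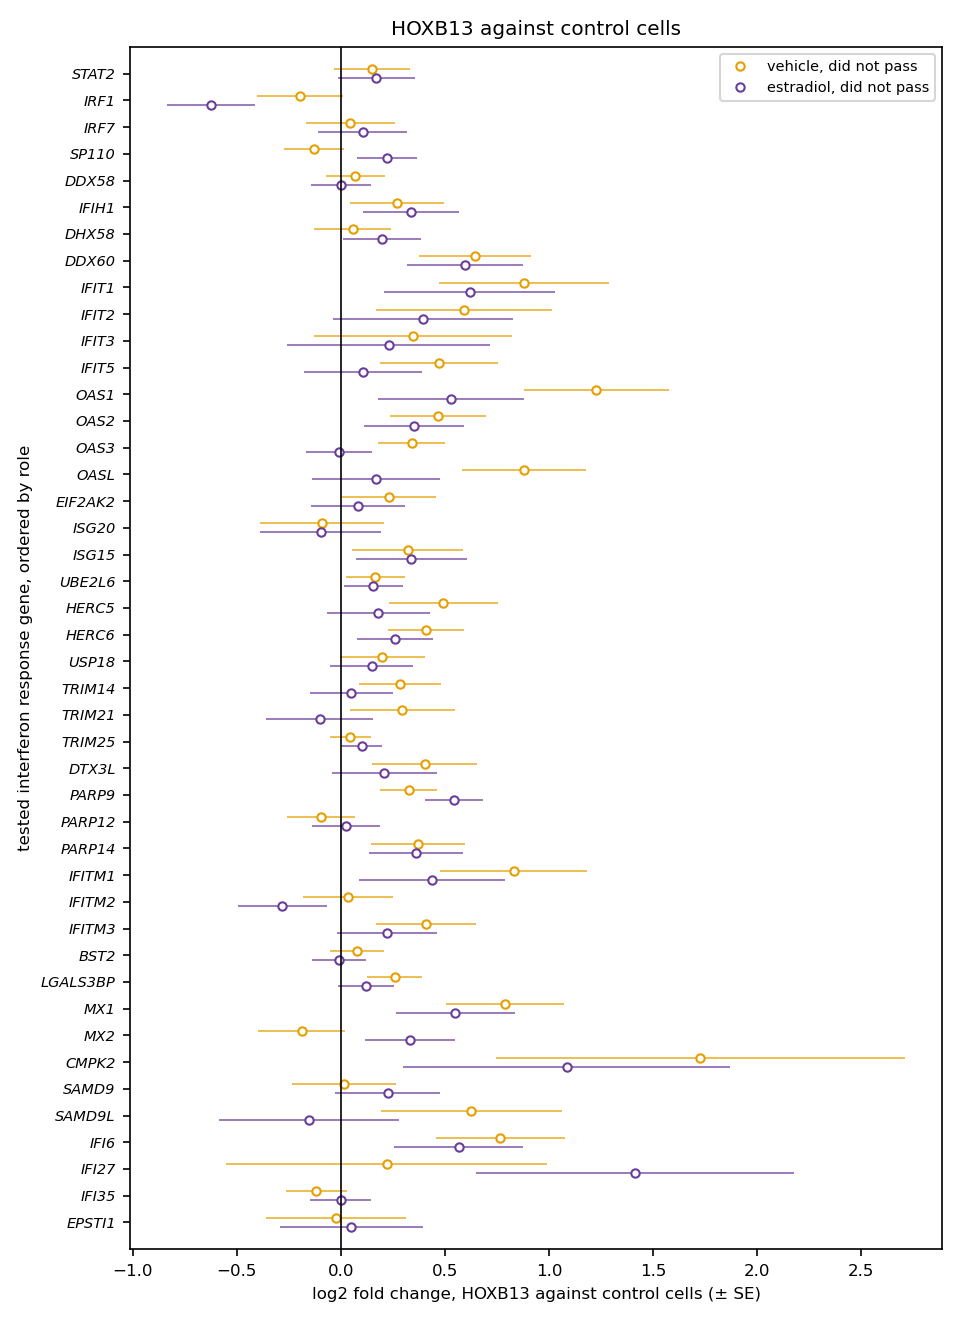
Log2 fold change of HOXB13 against control cells (x axis, bars ± SE of the edgeR fit over 12 libraries) for the 44 tested interferon response genes, in vehicle and in estradiol. Most points lie right of 0 in both treatments, 37 and 36 of 44, and every point is open because none passed the adjusted threshold.

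Separation of the libraries was counted as well. In vehicle, all 3 HOXB13 libraries exceeded all 3 control libraries for 5 of the 44 genes (11.4%), against 3.59% of all tested genes: OAS1, OASL, PARP9, IFI6 and LGALS3BP, a secreted glycoprotein for which the groups touched at 58.4 CPM. They were below for IRF1 and MX2, 4.55% against 3.54%, and for IRF1 the groups touched at 4.02 CPM. In estradiol, 9 genes were above (20.5%), against 4.51% of all: SP110, which touched at 12.2 CPM, DDX60, IFIT1, OAS1, OAS2, ISG15, HERC6, PARP9 and MX1. IRF1 alone was below, 2.27% against 5.37%. OAS1 and PARP9 were separated upward in both treatments. The libraries of the treatments are distinct, but they come from the same control and HOXB13 cells and correlate by number. The treatments are therefore not independent of each other, and the share of all genes separated in both was not counted. For estradiol against vehicle, 4 genes were separated upward and 8 downward in control cells, 9.09% and 18.2% against 16.1% and 14.9% of all, and 2 and 5 in HOXB13 cells, 4.55% and 11.4% against 15.3% and 14.7%.

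The vehicle comparison rested on libraries that differed widely. The median log2 fold change of 0.29 became 0.46 without HOXB13 vehicle library 2 and 0.15 without HOXB13 vehicle library 3. Without the 4 libraries numbered 2, a run chosen after seeing the data, it was 0.44. In that run OAS1 (1.70, edgeR adjusted p = 0.0314) and IFITM1 (1.39, edgeR adjusted p = 0.0399) were higher, where 28 of all genes were higher and 9 lower. The run left out HOXB13 vehicle library 2 and kept control vehicle library 1, the lowest of the 12 for both genes. With no low-count filter, IFI6 (0.000572), IFIT1 (0.0421), MX1 (2.78e-05) and OAS1 (0.00118) were higher, given with their edgeR adjusted p, where 37 of all genes were higher and 25 lower. None of these genes passed in the fit with the filter. For IFIT1 and MX1 the HOXB13 and control vehicle libraries overlapped, with HOXB13 vehicle library 2 at 2.8 and 54.8 CPM. In estradiol the median stayed between 0.16 and 0.24 with any library left out. HOXB13's own counts in the HOXB13 vehicle libraries were 112, 106 and 108, and their part in the spread was not tested.

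That spread was measured for each library as the median, over the 44 genes, of log2 CPM minus the gene's mean over 12 libraries. The levels of libraries 1, 2 and 3 were −0.26, −0.01 and 0.07 in control vehicle, −0.18, −0.14 and −0.09 in control estradiol, 0.20, −0.10 and 0.46 in HOXB13 vehicle and 0.02, −0.04 and 0.18 in HOXB13 estradiol. HOXB13 vehicle library 3 was the highest and control vehicle library 1 the lowest of the 12. HOXB13 vehicle library 3 held the highest value of all 12 for 21 of 44 genes (47.7%), against 10.5% of all tested genes. Control vehicle library 1 held the lowest for 16 (36.4%), against 12.9% of all genes, and the highest for 0, against 12.6%. The group means were −0.07 ± 0.18, −0.14 ± 0.05, 0.18 ± 0.28 and 0.06 ± 0.11 (SD, n = 3), in the same order. The HOXB13 and control levels overlapped in vehicle and did not overlap in estradiol, where all 3 HOXB13 libraries were above all 3 control libraries.

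**Figure D4:**
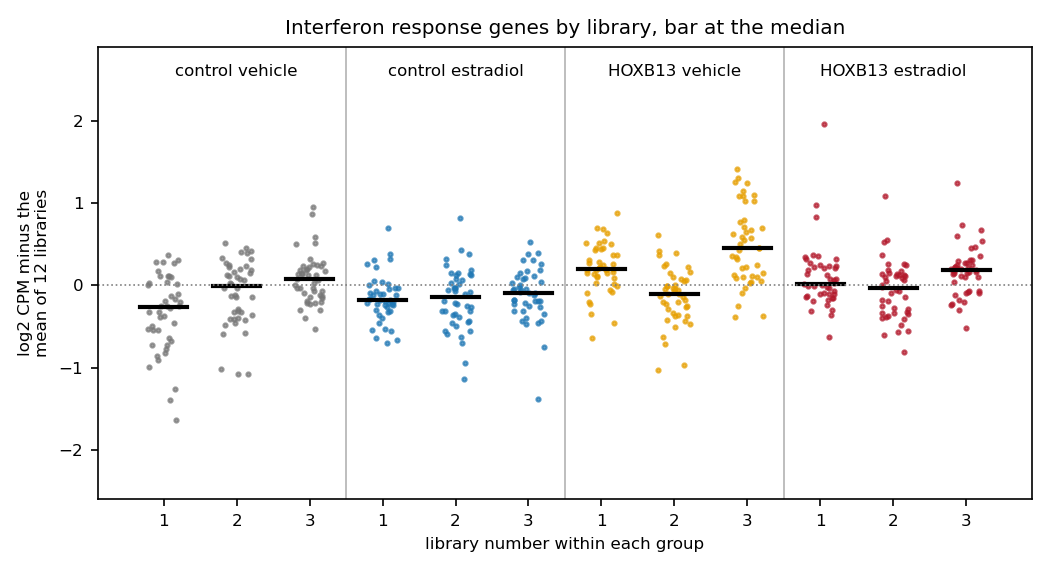
Log2 CPM minus the gene's mean over 12 libraries (y axis) for the 44 tested interferon response genes, 1 point per gene, in each library (x axis), with a black bar at the median. The medians run from −0.26 in control vehicle library 1 to 0.46 in HOXB13 vehicle library 3, and HOXB13 vehicle library 2 lies at −0.10.

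In some libraries most of the genes lay on the same side of their group mean. Within HOXB13 vehicle, 35 of the 44 were above their own group mean in library 3 and 11 in library 2, where 49.4% to 52.8% of all tested genes lie above theirs in a library. Within control vehicle, 34 were above it in library 3 and 10 in library 1. In the estradiol groups the counts ran from 17 to 31. The median SD of log2 CPM within a group was 0.29 for these genes and 0.23 for all tested genes in control vehicle, 0.38 and 0.21 in HOXB13 vehicle, 0.19 and 0.18 in control estradiol, and 0.21 and 0.18 in HOXB13 estradiol. The 4739 genes with a mean level between the quartiles of these 44 had 0.22 in control vehicle and 0.21 in HOXB13 vehicle. Leukocyte markers summed to 1.44 to 4.17 CPM in HOXB13 vehicle and 2.14 to 2.35 CPM in control vehicle, and their part in the spread was not tested.

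**Figure D5:**
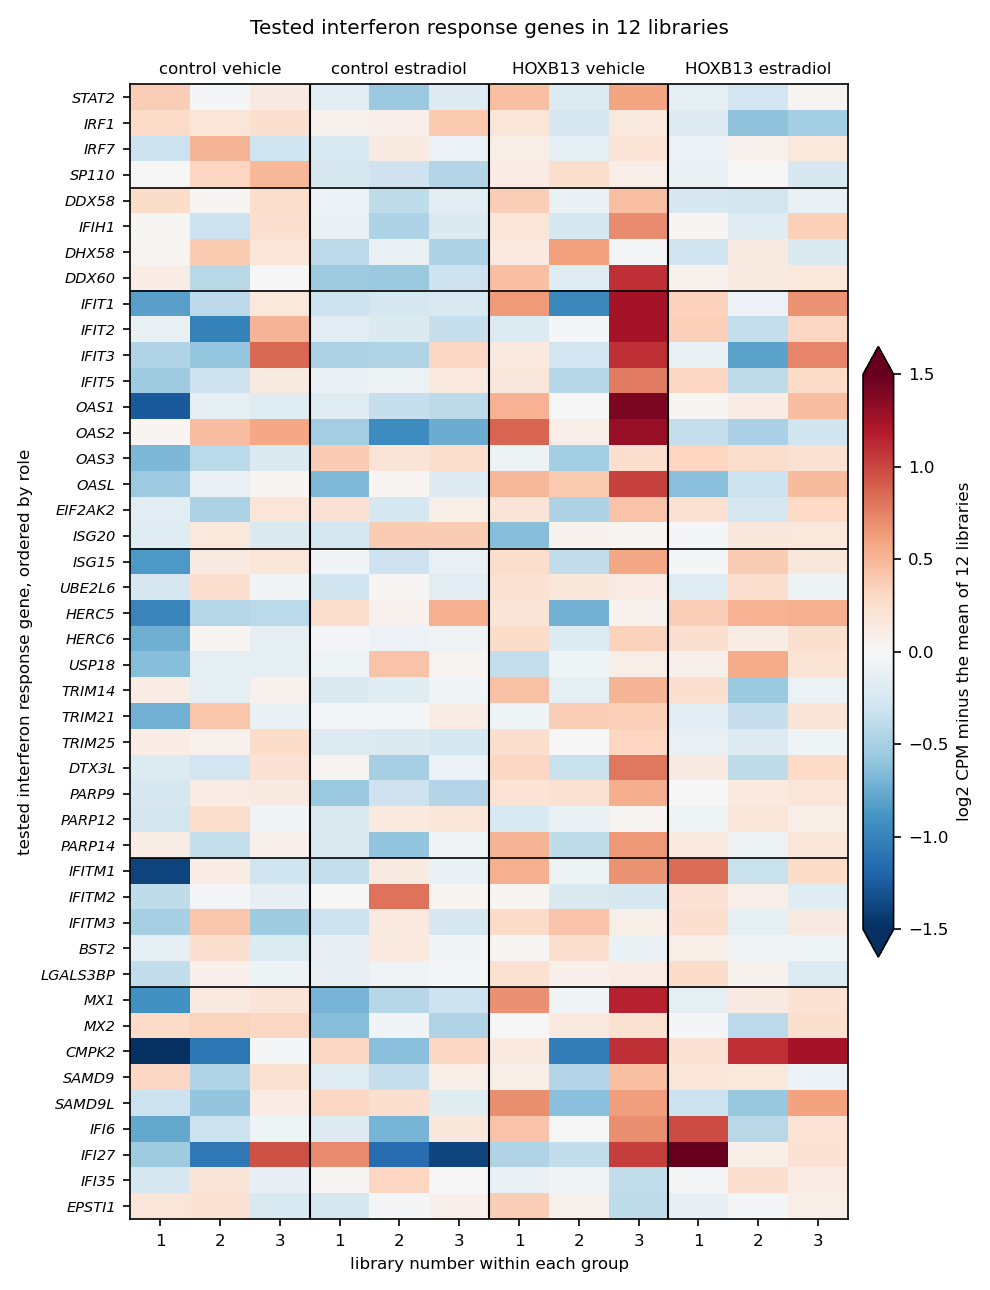
Log2 CPM minus the mean of 12 libraries (colour) for the 44 tested interferon response genes (rows, by role, with lines between roles) in each library (columns, by group). Library 3 of HOXB13 vehicle is mostly red, with 21 genes at their highest, and library 1 of control vehicle mostly blue, with 16 at their lowest.

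Part of the spread followed the library number, as it did over all tested genes. The labels give it as 1, 2 and 3 in every group without saying what it stands for. In a fit of group and number, 19 of the 44 genes differed between numbers (43.2%), near the 37.5% of all tested genes. Number 2 was lower than number 3 for 13 of the 44 (29.5%), against 18.7% of all, and higher for 4 (9.09%), against 17.5%. Against number 1 it was lower for 7 and higher for 6, where 18.4% and 16.3% of all genes were called, and 0 of the 44 differed between numbers 3 and 1, against 0.0405% lower and 0.027% higher among all (edgeR). At an unadjusted p under 0.05, 9 of the 44 differed between numbers 3 and 1, against 9.32% of all. EIF2AK2 had the largest F of the 44 in that fit, with log2 fold changes of number 2 of −0.48 ± 0.08 against number 1 (adjusted p = 8.79e-05) and −0.62 ± 0.08 against number 3 (adjusted p = 4.64e-06). IFIT3 was lower in number 2 than in number 3, at −1.32 ± 0.21 (adjusted p = 3.33e-05).

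The number differences were not all in 1 direction. DTX3L (−0.69), PARP14 (−0.56), IFIH1 (−0.60), STAT2 (−0.42) and DDX58 (−0.30) were also lower in number 2 than in number 3, as log2 fold changes. DHX58 (0.40), IFI35 (0.27) and UBE2L6 (0.22) were higher in number 2. Each of these 8 passed in that contrast at an edgeR adjusted p under 0.05. MX1, OAS1, OAS2, ISG15 and IFI6 did not pass by number, with adjusted p from 0.122 to 0.357.

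Other genes of the pathway were read from further lists. Over all tested genes, estradiol calls were 15.4% in control and 13.6% in HOXB13 cells, and 34% and 30.5% with the block. Of 14 receptors, JAKs and STATs, 1 rose with estradiol in each genotype (7.14%) and 13 did not pass. With the block, 1 rose in each, and 2 fell in control and 3 in HOXB13 cells (21.4% and 28.6% called). The gene that rose was JAK1, the kinase on IFNAR2, which went from 165 ± 23.5 to 358 ± 8.81 CPM in control cells (log2 fold change 1.12, edgeR adjusted p = 4.8e-05) and from 185 ± 25.8 to 356 ± 32.1 CPM in HOXB13 cells (0.94, edgeR adjusted p = 0.000248). TYK2 was at 48.6 ± 1.36 CPM in control vehicle, 54.6 ± 3.84 in control estradiol, 53.5 ± 5.43 in HOXB13 vehicle and 52.8 ± 8.36 in HOXB13 estradiol, and IFNAR2 at 1.87 ± 0.208 CPM in control vehicle, 2.61 ± 0.759 in control estradiol, 1.57 ± 0.636 in HOXB13 vehicle and 2.64 ± 0.134 in HOXB13 estradiol, and neither passed in any comparison. Of 14 tested genes of nucleic acid sensing and interferon induction, IKBKE, a kinase that activates IRF3, fell by 0.41 in control cells (edgeR adjusted p = 0.0387) and 0 passed in HOXB13 cells. With the block, 2 of these 14 rose and 3 fell in control cells, and 2 rose and 2 fell in HOXB13 cells. That was 35.7% and 28.6% called, and 7.14% and 0% without the block.

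Of 19 brakes on the response and enzymes that clear nucleic acids, 2 rose in each genotype, the RNase H2 subunits RNASEH2A (0.86 and 0.73) and RNASEH2B (0.89 and 0.94). RNase H2 removes RNA from DNA and acts in replication. With the block, 3 of the 19 rose and 3 fell in control cells, and 3 rose and 4 fell in HOXB13 cells. That was 31.6% and 36.8% called, and 10.5% in each without the block. Of 36 tested further interferon-stimulated genes, 2 rose in each genotype, PLSCR1, a phospholipid scramblase (0.90 and 0.70), and LY6E, a surface protein (1.14 and 0.71). TNFSF10, the death ligand TRAIL (−0.61 and −0.62), and CNP (−0.46 and −0.43) fell in both, and GBP2 (−0.77), a guanylate-binding protein, and PML (−0.45), a nuclear body protein, fell in HOXB13 cells. With the block, 2 of the 36 rose in each genotype, and 7 fell in control and 9 in HOXB13 cells. That was 25% and 30.6% called, and 11.1% and 16.7% without the block. The shares called in these lists were thus mostly near or below those of all tested genes. Between HOXB13 and control cells and in the interaction, edgeR called 0 genes of these lists with or without the block. At an unadjusted p under 0.05 edgeR gave 1 in vehicle, against 3.78% of all genes. It gave 0 in estradiol, against 3.3%, and 0 in the interaction, against 1.48%.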

How the data were processed

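Total RNA of 12 T47D libraries was sequenced, and the authors deposited 1 table of raw counts, with gene symbols as rows and libraries as columns. Per the submitters' processing notes, FastQC, STAR, Picard and HTSeq were used with builds GRCh37 and hg19. For versions, annotation release and strand, the sources used here give nothing, and unstranded counting would merge opposite-strand genes. All 12 columns were mapped to samples.

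The 49 genes and the other lists were chosen with earlier results of these data known. Genes were kept by filterByExpr in edgeR 4.0.16 (R 4.3.3; minimum count 10, minimum total count 15), which left 14799. Libraries were scaled by TMM (factors 0.974 to 1.04), and a prior count of 2 went into log2 CPM. The 5 comparisons used edgeR's quasi-likelihood F test in its robust form, with all 12 libraries in 1 fit of group means, and a threshold of 0.05 on p adjusted by Benjamini-Hochberg over every tested gene, and number differences an additive fit of group and number. The code was tested on simulated data.

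Values in every library are given for genes past the threshold in a comparison, for the 10 with the largest F between numbers and for 15 chosen by name. One pathway gene is not reported here. Alternatives were RLE factors, other filters, DESeq2 1.42.0, only the groups compared, each library left out, the replicate block and, chosen after seeing the data, no libraries numbered 2. Across all tested genes, deviations from the group mean were correlated between libraries of the same number, at 0.123 to 0.457 in the comparisons of 2 groups. This was above a limit of 0.1, so calls with the replicate block are given beside the main calls. The main calls came from the fit without the block, which ignores this pairing. For the interaction the lowest correlation was 0.0926, and it was not treated as paired. Equally grouped libraries differed beyond counting noise (6.86 to 44.9 as chi-square over its degrees of freedom), and each counted as a sample. Such a spread does not show that they came from separate cultures. Exon overlaps came from GENCODE 29 and promoters from RefSeq.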

Additional observations from a re-analysis of the deposited data

How the results depend on the processing

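With 3 libraries a group, small differences could not be resolved, and genes with few counts, such as IFI27, had wide errors. DESeq2, RLE factors and a filter of CPM above 1 in 3 libraries left every count of called genes within 1.5 times that reported. With the replicate number as a block, 4 genes were higher and 8 lower with estradiol in control cells, 1 higher and 7 lower in HOXB13 cells, and 1 higher with HOXB13 in estradiol. The block changed no other count of the 44 genes. With no low-count filter, 5 were lower with estradiol in HOXB13 cells and 4 higher with HOXB13 in vehicle. With only the 2 groups compared in the fit, 3 were lower in control and 1 in HOXB13 cells with estradiol. Leaving out 1 library at a time gave 1 to 2 genes higher and 1 to 4 lower in control cells, and 0 to 1 higher and 1 to 5 lower in HOXB13 cells. Without the 4 libraries numbered 2, chosen after seeing the data, 8 were lower in control and 6 in HOXB13 cells with estradiol, and 2 higher with HOXB13 in vehicle. The cause of these changes was not tested. Differences between numbers were called for 18 genes by DESeq2's likelihood ratio test, 23 with no filter and 13 to 20 with 1 library left out. The range of the level over libraries, 0.72, was 0.83 with the mean in place of the median. The promoter core was in 56.1% of promoters with only the bases before the start. No called gene reversed its direction under these alternatives.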
